A study of Mus musculus with 55 samples.

Results

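The change between the stages of B cell development at which the heavy chain locus and the light chain loci are rearranged was measured by comparing small pre-BII cells with pre-BI cells. Both populations had been sorted from mouse bone marrow, pre-BI cells as B220+ c-kit+ and small pre-BII cells as B220+ CD25+ sIg-, the last meaning no surface immunoglobulin. The labels give no strain, age, sex or treatment. Arrays were chosen by their titles, which put 22 of the 55 arrays of the series in this comparison. They came from 11 of 26 preparations, 6 of pre-BI cells (sorts 1, 2, 3, 8, 9 and 10) and 5 of small pre-BII cells (sorts 1, 3, 8, 9 and 10). Each preparation was hybridised to a first and a b array design, which carry different probe sets. Large pre-BII cells, the cycling stage between them, were also measured in 5 preparations. Whether each preparation was a different animal or pool is not stated in the labels, and p-values here cover only preparation-to-preparation spread, which may be technical.

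Pre-BI cells carry out D to J and V to DJ joining at the heavy chain locus and divide in response to stromal cytokines. A productive mu chain pairs with the surrogate light chain made by Vpreb1 and Igll1, and this pre-B cell receptor drives the burst of division seen in large pre-BII cells. Small pre-BII cells have left the cell cycle, no longer make surrogate light chain, and rearrange the kappa and lambda loci with the same Rag1 and Rag2 recombinase.

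Levels below are normalised intensities of 1 probe set. Values under 251 on the first design or 319 on the b design were not separable from noise. A fold compares group means on the log2 scale after values under this noise limit were raised to it, and is a lower bound ("at least") if the dimmer group stayed under the limit throughout. Where only some preparations of the dimmer group exceeded the limit, their number is given, and the fold then depends on the limit. The log2 difference and its SE belong to that fold, while list medians are of fitted log2 differences, each followed where it differs by the median after raising values to the limit. For a lower bound the whole dimmer group was set to the limit, so the SE holds only the spread of the brighter group. The brightest probe set of a gene is that with the highest mean log2 value over all 26 preparations. Adjusted p-values come from limma with Benjamini-Hochberg adjustment over 10219 probe sets, with a threshold of 0.05. That fit used values raised to lower floors, 87.6 on the first design and 6.89 on the b design. Where values lay under the noise limit, the p-value therefore belongs to a different log2 difference than the fold. Levels are set against each other only within a probe set. In sorted bulk samples, fewer cells of a type and less RNA per cell cannot be told apart.

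Of the 10219 probe sets tested, 837 (8.19%) changed, 357 (3.49%) higher and 480 (4.7%) lower in small pre-BII cells. By gene, 228 of 5025 (4.54%) had a probe set that was higher and 327 (6.51%) one that was lower, and none had both. With 555 (11%) in either direction, these are the shares to set beside the counts of the gene lists below. The groups did not overlap at 588 probe sets (5.75%), 240 higher (2.35%) and 348 lower (3.41%). After raising values to the noise limit, 37 of the rises and 71 of the falls were at least 4-fold. Neither group exceeded that limit in any preparation at 24 of the rises and 21 of the falls. These have no fold, and their calls rest on values not separable from noise. Sorts 1 to 3 and sorts 8 to 10 formed batches by the 18S ribosomal RNA probe sets, at 7859 to 14192 in the former and -452 to 194 in the latter, in both groups. With this batch as a block 918 probe sets changed, 161 within sorts 1 to 3 and 667 within sorts 8 to 10. Each of the 837 kept its direction within both batches. They were chosen on these same preparations, which made this likely, so it is no separate evidence. A difference of the effect between batches passed at 0 probe sets in limma, against 617 at an unadjusted p under 0.05.

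The genes behind the sort gates and the label were examined first. The B220 antigen is a product of Ptprc, which rose 1.55-fold, from a mean of 2928 ± 670 (SD, n = 6) to 4464 ± 599 (n = 5; adjusted p = 0.00449), and the groups did not overlap. The Ptprc call was lost with the values as deposited (adjusted p = 0.403) and with only the 2 groups fitted (0.0662). It was also lost within sorts 1 to 3 (0.279) and sorts 8 to 10 (0.113). Kit, the c-kit receptor, stood at 176 to 356 in pre-BI cells and at -21.1 to 185 in small pre-BII cells, with 2 of 6 and none of the preparations above the noise limit. Its difference did not pass (adjusted p = 0.0661). Il2ra, the CD25 gene, was above the limit in 1 small pre-BII preparation, sort 1 (437), and in no pre-BI preparation (adjusted p = 0.217). The CD25 gate was therefore not visible in this transcript.

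The genes that add or copy nucleotides at coding joints changed in opposite directions. Dntt encodes terminal transferase, which adds untemplated nucleotides and is used mainly at heavy chain joints. Its level was 7592 at the lowest, 7998 at the median and 8474 at the highest in pre-BI cells, and 20.2, -40.6, 96.3, 119.8 and 234.3 in small pre-BII sorts 1, 3, 8, 9 and 10. Every pre-BI preparation was bright, every small pre-BII preparation lay under the noise limit, and the groups were far apart. Dntt fell at least 25.1-fold (-4.65 ± 0.026 on the log2 scale, adjusted p = 3.33e-07), and a dimmer second probe set fell at least 2.22-fold (adjusted p = 0.00094). The SE of 0.026 holds only the pre-BI spread, and the fit behind the p-value gave -7.27 ± 0.78. Most of the fall had taken place by the large pre-BII stage, whose mean was 288.

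Polm encodes polymerase mu, the closest relative of terminal transferase, which fills gaps at joints and acts mainly at light chain joints. Its level ran from 683 through a median of 1120 to 2124 in pre-BI cells and was 9268, 11663, 7043, 5443 and 8543 in the small pre-BII preparations. The lowest small pre-BII value lay above the highest pre-BI value. Polm rose 7.49-fold (2.91 ± 0.32, adjusted p = 1.71e-07), with 2902 in large pre-BII cells, so each step was a rise that passed (adjusted p = 0.0109 and 0.00199). Among 8 tested genes of end joining and the break response Polm was the 1 that rose. H2ax, the histone variant phosphorylated at breaks and made in dividing cells, was the 1 that fell, 3.03-fold by its brightest probe set over all preparations and 8.52-fold by the other, which was the brighter in pre-BI cells.

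The recombinase genes differed less. Rag1, its catalytic subunit, ran from 1250 through 2224 to 3737 in pre-BI cells and was 6221, 5247, 2938, 3313 and 8190 in small pre-BII cells. The groups overlapped, since small pre-BII sorts 8 and 9 lay under the highest pre-BI preparation. Rag1 rose 2.23-fold (1.16 ± 0.38, adjusted p = 0.0184) after standing at 1207 in large pre-BII cells. This call was lost without pre-BI sort 8 or 9 or small pre-BII sort 1 or 10 (adjusted p up to 0.0751), and within either batch. Rag2, the other subunit, averaged 546 ± 444 (SD, n = 6) and 558 ± 172 (n = 5) and did not pass (log2 difference 0.31 ± 0.48, adjusted p = 0.82). Hmgb1 and Hmgb2, chromatin proteins that bend DNA at recombination signals, fell 1.51-fold (adjusted p = 0.00706) and 5.59-fold (adjusted p = 0.0441) without overlap. The Hmgb1 call was lost with trimmed mean scaling (adjusted p = 0.26), 75th percentile scaling (0.0752) and the values as deposited (0.23). It was also lost within sorts 1 to 3 (0.184) and sorts 8 to 10 (0.209). Hmgb2 stayed under the threshold only when small pre-BII sort 1 was the preparation left out, and reached 0.124 without small pre-BII sort 8. In all 1 of 5 genes of the recombinase core rose and 3 fell.

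The surrogate light chain genes parted. Igll1, which encodes lambda5, ran from 1225 through 2839 to 6162 in pre-BI cells and was -51.7, 8.4, -33.7, 237.9 and 80.0 in small pre-BII cells, all under the noise limit. It fell at least 8.79-fold (-3.14 ± 0.42, adjusted p = 1.06e-06). Vpreb1, its partner, ran from 3634 through 4394 to 5733 and was 653.3, 431.9, 703.4, 734.6 and 254.9 in small pre-BII cells. The groups did not overlap, 4 of 5 small pre-BII preparations exceeded the noise limit, and Vpreb1 fell 8.24-fold (-3.04 ± 0.25, adjusted p = 0.00365), although it did not pass within sorts 8 to 10 (adjusted p = 0.116). Vpreb3, a related gene whose product stays inside the cell, ran from 5363 to 8900 in pre-BI cells and from 9962 to 14050 in small pre-BII cells. Its groups did not overlap either, with small pre-BII cells higher by 1.69-fold, but the difference did not pass in the fit of 26 preparations (adjusted p = 0.411). It passed with only the 2 groups in the fit (adjusted p = 0.0105).

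Among immunoglobulin genes, Iglc1 and Ighm passed as higher, Ighm less firmly. Iglc1, a lambda light chain constant region gene, ran from 631 through 873 to 1272 in pre-BI cells and was 5305, 5694, 7612, 3903 and 4534 in small pre-BII cells. The groups were separate, and the rise was 6.06-fold (2.60 ± 0.23, adjusted p = 9.31e-09). Large pre-BII cells, at 323, lay under both, and their difference from pre-BI cells passed as well (adjusted p = 0.000242). The lambda constant region genes are close copies, and which of them this probe set read was not tested. Ighm, the mu heavy chain gene, averaged 10080 ± 1707 and 14281 ± 2705 and rose 1.41-fold with overlapping groups (adjusted p = 0.0125, and 0.0533 without small pre-BII sort 10). The call was also lost with trimmed mean (adjusted p = 0.164) or 75th percentile scaling (0.0966) and with the values as deposited (0.233). Neither did it hold with only the 2 groups fitted (0.126) or within sorts 1 to 3 (0.324) or 8 to 10 (0.154). A second bright probe set of Ighm did not pass (adjusted p = 0.0509).

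Kappa light chain probe sets were read only where they had 1 gene symbol, and these were dim. Kappa probe sets with several symbols or none were not read, so the kappa level as a whole was not measured here. Those read were looked up after their values had been seen, since the tested immunoglobulin list held no kappa gene. A probe set of Igkv4-91, a kappa variable gene, read 929.7, 417.4, 1152.1, 465.9 and 565.9 in small pre-BII cells, all above the noise limit, and exceeded it in 1 of 6 pre-BI preparations (-38.0 to 322). It was 2.04-fold higher (adjusted p = 0.00781). The other probe set of Igkv4-91 (adjusted p = 0.204) and those of Igk (adjusted p = 0.197) and Igkv5-43 (adjusted p = 0.341) did not pass.

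**Figure D1:**
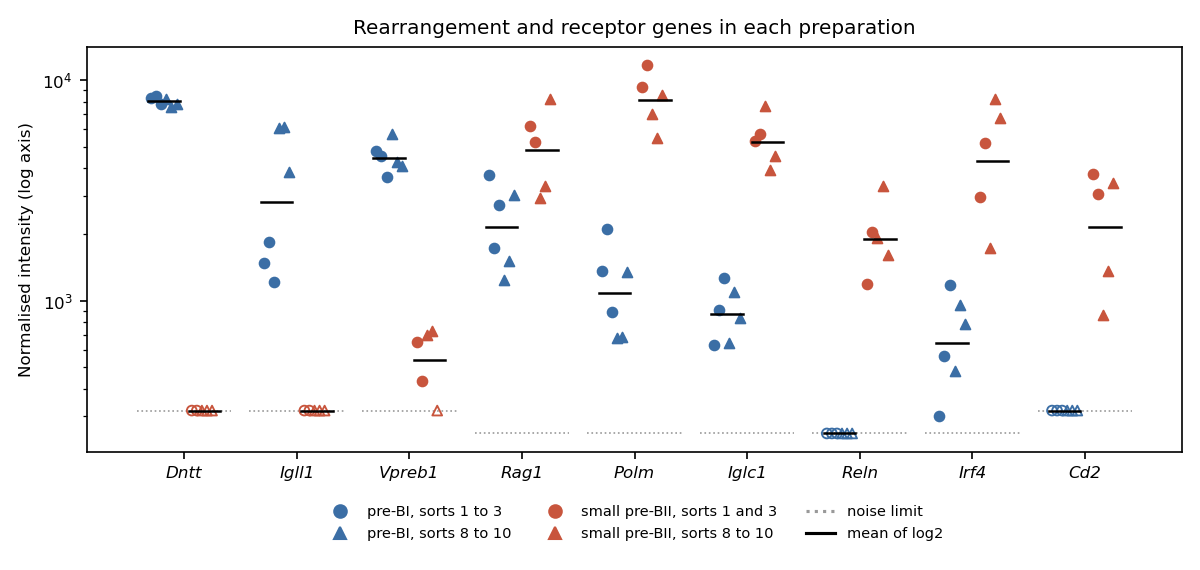
Normalised intensity (log axis) of 9 genes in each pre-BI and small pre-BII preparation. Circles mark sorts 1 to 3 and triangles sorts 8 to 10, bars are means of log2 values, and open symbols are values under the noise limit drawn at it. Dntt and Igll1 lie at the limit in all 5 small pre-BII preparations and Reln and Cd2 in all 6 pre-BI preparations, while the Rag1 groups overlap.

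Reln encodes reelin, a large secreted glycoprotein known from neuronal migration. It was under the noise limit in every pre-BI preparation (-55.4 to 121) and read 1199, 2046, 1921, 3326 and 1620 in small pre-BII cells, at least 7.60-fold higher (2.93 ± 0.24). The adjusted p was 6.35e-11. Its mean was 114 in large pre-BII cells, 203 in immature B cells and -29.0 in mature B cells, so of the 5 populations only small pre-BII cells had a mean above the noise limit. Fcrla, an intracellular Fc receptor-like gene of B cells, ran from 158 through 220 to 265 in pre-BI cells and was 2889, 3581, 2901, 1172 and 3235 in small pre-BII cells. It rose 10.2-fold (3.35 ± 0.29, adjusted p = 1.03e-09), with 1 of 6 pre-BI preparations above the noise limit. Sort 9 was the lowest of the small pre-BII preparations and still above every pre-BI preparation. Samhd1, a dNTP hydrolase that lowers nucleotide pools in resting cells, rose 9.43-fold from 312 ± 89.0 (5 of 6 above the noise limit) to 3119 ± 1051 (adjusted p = 2.31e-09) and was higher again in mature B cells, at 6730.

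The other leading rises were Spin1, a histone methylation reader (6.82-fold, adjusted p = 4.53e-05), Slc25a53, a mitochondrial carrier family gene (5.65-fold, adjusted p = 1.27e-07), and Traf5, a signalling adaptor of TNF receptors (5.53-fold, adjusted p = 8.6e-09). Each had groups that did not overlap, and Spin1 and Traf5 exceeded the noise limit in 3 and 5 of 6 pre-BI preparations. Of the 357 probe sets that rose, 178 had their highest population mean in small pre-BII cells, 104 in immature, 69 in mature and 6 in large pre-BII cells. They were chosen as high in these same small pre-BII preparations, which favours that population. The same shares over all probe sets were not counted. By comparisons that share these samples, 52 of the 357 had also passed as higher in large pre-BII than in pre-BI cells and 150 as higher in small than in large pre-BII cells, 12 in both. The remaining 167 passed in neither step.

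Of 15 tested genes of antigen receptor signalling 7 rose and 1 fell. The median log2 difference of the list was 0.63 (0.51 after raising values to the noise limit), beside 0.04 (0) for all genes tested. Blk, a Src family kinase of B cells, ran from 1569 through 2556 to 3015 in pre-BI cells and was 6852, 9317, 11835, 9873 and 8329 in small pre-BII cells, without overlap. It rose 4.02-fold (2.01 ± 0.21, adjusted p = 3.11e-08). Syk, the kinase that binds phosphorylated receptor chains, rose 3.33-fold from 3842 ± 1639 to 11971 ± 1592 (adjusted p = 1.58e-06). Cd79b, a signalling chain of the receptor, rose 2.73-fold from 4666 ± 1940 to 11862 ± 1540 (adjusted p = 1.54e-05).

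Prkcd, a protein kinase C of B cells that restrains their activation, rose 1.81-fold with overlapping groups (adjusted p = 0.00129), although a dimmer probe set did not pass (adjusted p = 0.885). Inpp5d, the phosphatase SHIP that opposes PI3 kinase, fell 1.84-fold with overlap (adjusted p = 0.0397). Its call was lost without pre-BI sort 2, 3, 9 or 10 or small pre-BII sort 1, 8 or 10 (adjusted p up to 0.115).

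Of 18 tested transcription factors of the B lineage 5 rose and 1 fell, and the others did not pass. The list median was 0.64, and 0.22 after raising values to the noise limit. Irf4, which acts at the kappa and lambda enhancers, ran from 302 through 673 to 1180 in pre-BI cells and was 2957, 5200, 1746, 8190 and 6743 in small pre-BII cells. The groups did not overlap although small pre-BII sort 8 was low, and the rise was 6.67-fold (2.74 ± 0.50, adjusted p = 1.17e-05). Large pre-BII cells stood between, at 2768. Nfkbia, the NF-kB inhibitor that is itself an NF-kB target, ran from 796 to 1585 in pre-BI cells and from 4705 to 8889 in small pre-BII cells, and rose 5.05-fold (2.34 ± 0.24, adjusted p = 1.27e-07). Birc3, an inhibitor of apoptosis also induced by NF-kB, rose 5.56-fold (adjusted p = 1.88e-06), with 2 of 6 pre-BI preparations above the noise limit.

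Klf2, a factor that maintains quiescence in lymphocytes, rose 4.69-fold from 957 ± 248 to 4531 ± 1591 (adjusted p = 4.85e-06). Tcf12, an E protein that pairs with E2A, rose 2.56-fold (adjusted p = 0.00023). Id3, an inhibitor of E proteins, moved the other way and fell 2.25-fold from 1201 ± 124 to 547 ± 141 without overlap (adjusted p = 0.000884). The list median ranged from 0.12 within sorts 8 to 10 to 1.16 with a floor at the 25th percentile. Pax5, the factor of B lineage commitment, was picked after its values were seen and had group means of 97.4 and 112, under the noise limit.

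Of 20 tested progenitor genes 5 fell and 1 rose, with a median of -0.45 (-0.05). Eng, a TGF-beta coreceptor, ran from 709 through 986 to 1626 in pre-BI cells and was 99.7, -93.7, -75.7, -119.1 and -177.2 in small pre-BII cells, at least 3.32-fold lower (-1.73 ± 0.19, adjusted p = 2.92e-07). Enpep, the BP-1 antigen of early B cells, fell 3.35-fold (adjusted p = 0.000304). Lef1, a Wnt pathway factor of early B cells, fell at least 2.34-fold (adjusted p = 0.000298) from levels of 242 to 2718 that varied widely among pre-BI preparations. Thy1, a surface antigen of lymphoid progenitors, fell at least 1.16-fold (adjusted p = 1.25e-06). Its means of 302 and -185 were both under the noise limit. Only 2 pre-BI preparations (431 and 569) and no small pre-BII preparation exceeded that limit. Ly6d, a surface marker acquired on B lineage commitment, rose 4.51-fold from 2184 ± 657 to 9620 ± 1529 (2.17 ± 0.19, adjusted p = 2.12e-08), without overlap.

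Besides Tuba1a, given below, the largest falls of single genes included 3 outside the lists. Mgst2, a microsomal glutathione transferase, fell 7.17-fold (adjusted p = 2.6e-05), Emp1, an epithelial membrane protein gene, 8.40-fold (adjusted p = 7.93e-07), and Gbp7, an interferon-inducible GTPase gene, at least 7.23-fold (adjusted p = 5.98e-08). All 3 were already lower in large than in pre-BI cells (means of 231, 441 and 156, adjusted p = 3.83e-06, 1.14e-05 and 2.95e-07). Mgst2 and Emp1 exceeded the noise limit in 4 of 5 small pre-BII preparations each.

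The cytokine pathway genes gave 4 rises and 1 fall among 19, with a median of 0.21 (0.08). Pim2, a survival kinase downstream of Stat5, was under the noise limit in all pre-BI preparations (21.8 to 197) and read 1210, 1793, 1565, 2308 and 1662 in small pre-BII cells. It rose at least 5.24-fold (2.39 ± 0.15, adjusted p = 3.29e-06), and a second probe set rose at least 4.39-fold. Il10ra (2.54-fold, 2 of 6 pre-BI preparations above the noise limit, adjusted p = 0.000494) and Il4ra (at least 1.71-fold, adjusted p = 0.00159), the receptor chains for interleukin 10 and 4, rose with overlap. Socs2, a Stat5 target that dampens cytokine signals, fell at least 1.92-fold (adjusted p = 8.97e-05). Socs1, a related inhibitor, rose 2.74-fold with overlap and 1 of 6 pre-BI preparations above the noise limit (adjusted p = 0.0248), the small pre-BII preparations reading 2120, 1040, -17.4, 150 and 1148. Its call was lost without pre-BI sort 8, 9 or 10 or small pre-BII sort 1, 3 or 10 (adjusted p up to 0.1). Il7r, the interleukin 7 receptor chain, picked after its values were seen, did not pass, at 289 and 378 (adjusted p = 0.825).

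Cell cycle genes gave the most falls of the lists. Of 30 tested genes of DNA replication 24 fell and none rose, and of 38 tested genes of G2 and mitosis 31 fell and none rose. All 68 had a negative log2 difference. The list medians were -1.92 and -1.92, and -1.40 and -1.69 after raising values to the noise limit, beside 0.04 and 0 for all genes. The groups did not overlap for 19 of the 24 and 27 of the 31. Leaving out single preparations gave 22 to 25 and 29 to 33 falls, and the values as deposited gave 11 and 15.

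Tk1, thymidine kinase, ran from 923 through 1247 to 1930 in pre-BI cells and was 159.1, 5.6, -38.9, 232.0 and -173.3 in small pre-BII cells, all under the noise limit. It fell at least 5.19-fold (-2.38 ± 0.15, adjusted p = 7.43e-08). Tyms, thymidylate synthase, fell at least 5.02-fold (adjusted p = 1.27e-07) and Mcm10, a replication initiation factor, at least 3.53-fold (adjusted p = 1.02e-06). Lig1, the replicative DNA ligase, fell 6.89-fold from 2907 ± 318 to 415 ± 357 (adjusted p = 1.79e-05), Rrm1, the ribonucleotide reductase large subunit, 6.23-fold (adjusted p = 1.63e-05), and Mcm6, a subunit of the replicative helicase, 6.19-fold (adjusted p = 6.37e-05). Rrm1 and Fen1, a flap endonuclease, lie outside the naming rule and were picked after their values were seen. Lig1 and Mcm6 exceeded the noise limit in 3 and 4 of 5 small pre-BII preparations. Of the 24 falls 9 were lower bounds, from at least 1.26-fold (Fen1), so the falls have no settled order. A second probe set of Mcm6 fell at least 7.0-fold.

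Prc1, a crosslinker of the central spindle, ran from 951 through 1253 to 2143 in pre-BI cells and was -63.4, -12.5, 109.5, 112.0 and -80.9 in small pre-BII cells. It had the smallest adjusted p of the mitotic genes, falling at least 5.21-fold (-2.38 ± 0.19, adjusted p = 1.2e-12). Nusap1, a spindle protein gene, read -165.8, 96.0, 671.9, 609.6 and -6.7 in small pre-BII cells against 2301 to 5224 in pre-BI cells and fell 9.93-fold (-3.31 ± 0.37, adjusted p = 7.93e-07). The small pre-BII preparations of sorts 8 and 9 alone, 2 of 5, were above the noise limit. Mki67, the proliferation antigen Ki-67, remained measurable in all small pre-BII preparations, at 2503, 1196, 1985, 1727 and 1070 against 4990 to 11264, and fell 4.92-fold (-2.30 ± 0.29, adjusted p = 2.12e-08).

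Top2a, topoisomerase II alpha, fell at least 4.28-fold by one probe set (adjusted p = 2.32e-09) and at least 4.48-fold by the other. Hmmr, a spindle-associated hyaluronan receptor gene, fell at least 1.28-fold by one probe set (adjusted p = 2.32e-09), while its brighter probe set did not pass (adjusted p = 0.297). The Hmmr call was lost with values raised to the noise limit before the fit (adjusted p = 0.158). Tuba1a, an alpha tubulin gene outside the lists, fell 10.6-fold from 11181 ± 1014 to 1334 ± 1040 (-3.41 ± 0.50, adjusted p = 5.98e-08) and 6.05-fold by a second probe set. Alpha tubulin genes are close copies, so other members may be read by these probe sets.

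Levels in large pre-BII cells are given for both lists, whose difference was not tested. All 31 fallen mitotic genes had a higher mean in large pre-BII than in pre-BI cells, and 11 of them passed as higher there, beside 1.13% of all genes higher and 1.83% lower in that comparison (0.9% and 1.06% of probe sets). Of the 24 fallen replication genes, 17 had a higher mean in large pre-BII cells and none passed. The list medians of large pre-BII minus pre-BI were 1.02 and 0.19, and those of small minus large pre-BII -2.93 and -2.13, for mitosis and replication. From large to small pre-BII cells all 31 and 23 of the 24 passed as lower, beside 4.2% of all genes lower and 3.16% higher (3.21% and 2.28% of probe sets). These comparisons share samples. The mean of Nusap1, for example, was 3743 in pre-BI, 7338 in large pre-BII and 241 in small pre-BII cells, and that of Tk1 1341, 1163 and 36.9.

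**Figure D2:**
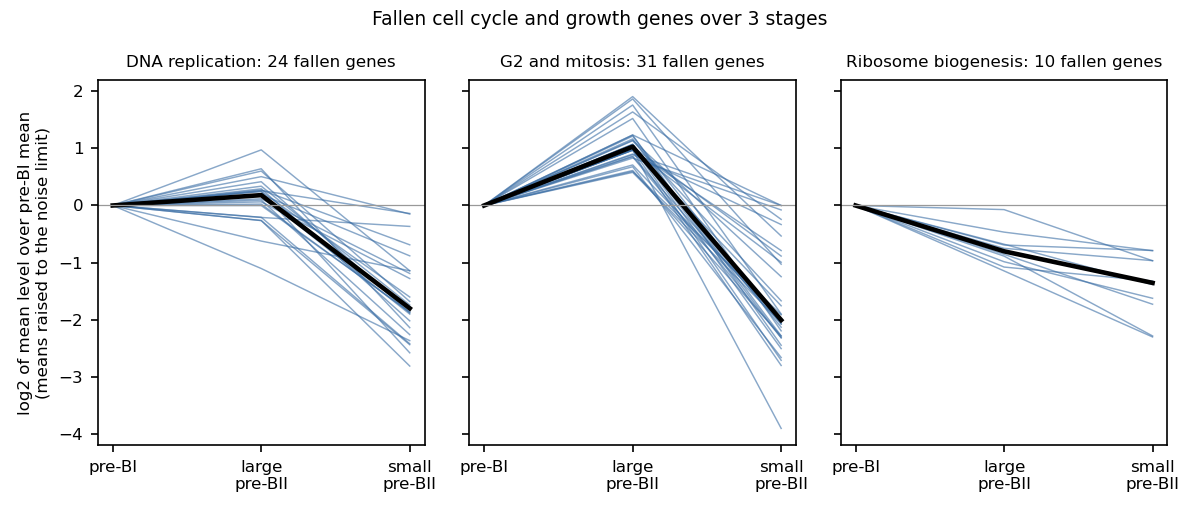
Mean level in pre-BI, large pre-BII and small pre-BII cells, as log2 over the pre-BI mean with means raised to the noise limit. Thin lines are the genes that fell between pre-BI and small pre-BII cells (24 of DNA replication, 31 of G2 and mitosis, 10 of ribosome biogenesis) and the thick line is their median. All 31 mitotic genes peak in large pre-BII cells, and all 10 ribosome biogenesis genes lie between the outer stages there.

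Promoter sequence was examined for these genes because they fell together. Genes of mitosis often carry a cell cycle homology region (CHR), bound by MuvB complexes, and genes of replication E2F sites. Sequences are RefSeq's, build GRCm38.p6, from 250 bases before to 50 after each gene start. For 4020 of the 5025 genes tested 5165 such windows were at hand. CHR was searched as TTTGAA or TTCGAA and E2F as TTCCCGC or TTGGCGC, on both strands. The spellings of a motif differ in letters and so count different places, and overlap of a CHR with an E2F match was not removed. The 130 bases before the start are printed for 3 mitotic and 2 replication genes that show the matches, 5′ to 3′ on the gene's strand, with CHR in capitals for the first 3 and E2F in capitals for the others.
Prc1: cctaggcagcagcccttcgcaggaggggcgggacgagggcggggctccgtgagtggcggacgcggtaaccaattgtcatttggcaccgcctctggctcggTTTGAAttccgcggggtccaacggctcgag
Mki67: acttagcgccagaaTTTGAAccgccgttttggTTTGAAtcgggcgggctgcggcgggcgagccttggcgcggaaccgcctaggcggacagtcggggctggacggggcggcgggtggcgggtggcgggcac
Top2a: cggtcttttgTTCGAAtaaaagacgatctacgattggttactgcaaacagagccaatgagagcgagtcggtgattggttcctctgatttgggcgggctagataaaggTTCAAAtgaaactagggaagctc
Mcm6: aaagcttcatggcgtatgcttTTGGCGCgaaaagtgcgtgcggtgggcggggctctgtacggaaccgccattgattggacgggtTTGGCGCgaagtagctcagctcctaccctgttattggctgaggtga
Rrm1: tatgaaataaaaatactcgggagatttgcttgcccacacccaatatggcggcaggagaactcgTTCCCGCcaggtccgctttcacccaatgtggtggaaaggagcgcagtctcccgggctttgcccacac
They lie at chr7:80294346-80294475 (Prc1, plus strand), chr7:135716380-135716509 (Mki67, minus), chr11:99024190-99024319 (Top2a, minus), chr1:128359706-128359835 (Mcm6, minus) and chr7:102441565-102441694 (Rrm1, plus).

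The capitals of Prc1 begin 30 bases before the start, those of Mki67 116 and 98, those of Top2a 120 and 23, those of Mcm6 109 and 46 and those of Rrm1 67. Prc1 had windows at 2 starts, and the same match begins 5 bases before the other start. The second match of Top2a reads TTCAAA because it lies on the opposite strand. A CHR match was held by 20 of 26 fallen mitotic genes with a window (76.9%), 5 of 23 fallen replication genes (21.7%) and 698 of 4020 genes tested (17.4%). An E2F match was held by 5 of 26 fallen mitotic genes (19.2%), 13 of 23 fallen replication genes (56.5%) and 525 of 4020 (13.1%).

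Among all genes with a lower probe set the shares were 30% for CHR and 22.6% for E2F, and among those with a higher one 14.2% and 8.28%. Fallen genes of neither list held CHR in 25.6% and E2F in 19.7% of cases. E2A was searched as CAGGTG or CAGCTG, EBF as CCCNNGGG, FoxO as GTAAACA, and PU.1 as AGGAAGT. Matches of E2A, EBF, FoxO and PU.1 were held by 39.1%, 23.7%, 3.55% and 11.2% of the genes that rose, beside 34.1%, 21.5%, 3.51% and 10.3% of all tested. These are descriptions of letters in a window, not of binding. By windows rather than genes, CHR was in 79.3% of those of fallen mitotic genes and in 14.6% of all.

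**Figure D3:**
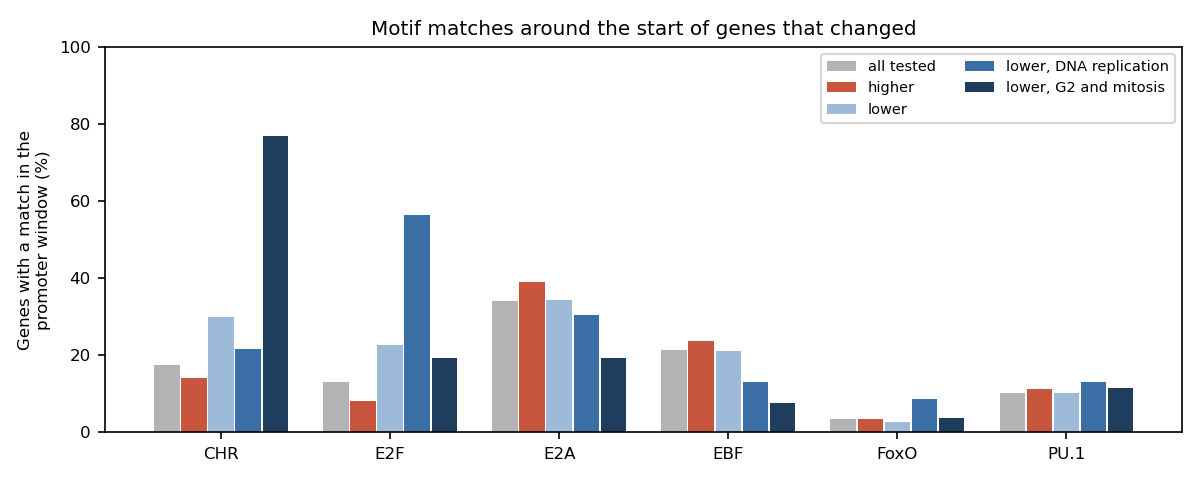
Percent of genes with at least 1 match of each motif in the window from 250 bases before to 50 after the start, by how the gene changed. The CHR bar of fallen mitotic genes (76.9%) and the E2F bar of fallen replication genes (56.5%) stand above those of all genes tested (17.4% and 13.1%), while the other motifs differ less.

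Genes at the entry to the cell cycle fell in part, 6 of 11 lower and 1 higher, with a median of -1.21 (-1.05). Ccnd2, cyclin D2, ran from 407 through 768 to 1217 in pre-BI cells and was -17.9, -31.0, -220.9, -70.2 and -90.6 in small pre-BII cells. It fell at least 3.04-fold (-1.60 ± 0.25, adjusted p = 5.91e-09), was under the noise limit in large pre-BII cells too (6.14), and averaged 2138 in immature B cells. Ccne1, cyclin E1, fell at least 1.81-fold (adjusted p = 9.57e-05) but was at 703 in large pre-BII cells. Rbl1, which encodes p107, fell 3.47-fold with 1 of 5 small pre-BII preparations above the noise limit (adjusted p = 5.02e-07), while Rb1, the retinoblastoma gene, rose 2.54-fold from 341 ± 89.5 (5 of 6 above the noise limit) to 876 ± 209 (adjusted p = 0.000559). Ccnd3, cyclin D3, fell 2.06-fold with overlap (adjusted p = 0.0419), and small pre-BII sort 1 (5941) lay within the pre-BI range. Its call held only without pre-BI sort 2 or 10 or small pre-BII sort 1 and reached 0.166 without small pre-BII sort 8. A second probe set of Ccnd3 fell 2.17-fold without overlap (adjusted p = 0.00078).

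Anti-proliferative genes gave 6 rises and 2 falls among 19, with a median of 0.77 (0.26). Btg2, an anti-proliferative target of p53, ran from 849 through 1739 to 2031 in pre-BI cells and was 8329, 6629, 6003, 6073 and 6029 in small pre-BII cells, without overlap. It rose 4.17-fold (2.06 ± 0.21, adjusted p = 6.15e-08). Btg1, its relative, rose 3.51-fold (adjusted p = 1e-05) and Ccng2, an unconventional cyclin of resting cells, 2.02-fold (adjusted p = 1.17e-05). Ccng2 had reached its level by large pre-BII cells (2477, against 1151 in pre-BI and 2304 in small pre-BII cells), whereas Btg2 had not (2354, against 1630 and 6613).

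Of 5 tested genes of classical CDK inhibitors 2 fell and none rose. Cdkn2c, which encodes p18, fell 2.53-fold with overlap and 4 of 5 small pre-BII preparations above the noise limit (adjusted p = 0.0167) after a mean of 3478 in large pre-BII cells. Cdkn1a, which encodes p21, fell 1.87-fold with overlap and 1 of 5 above it (adjusted p = 0.0165), and the call was lost without small pre-BII sort 1, 3 or 10 (adjusted p up to 0.0663). A second probe set of Cdkn1a did not pass (adjusted p = 0.0593).

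Histone and chromatin genes fell in 7 of 11 cases and rose in 1, with a median of -1.05. Hmgn2, a nucleosome binding protein, fell 2.34-fold (adjusted p = 1.22e-05) and H2az2, a histone variant gene, 2.13-fold (adjusted p = 0.00078), both without overlap. All 7 fallen members had a higher mean in large pre-BII than in pre-BI cells. Nap1l1, a histone chaperone, fell 1.85-fold with overlap (adjusted p = 0.012, and 0.0549 without small pre-BII sort 3). H3f3a, the replication-independent histone H3.3, rose 1.40-fold with overlap (adjusted p = 0.0491). It was lost in 8 of 11 fits that left out a preparation, pre-BI sort 1, 2, 8 or 9 or small pre-BII sort 1, 8, 9 or 10 (adjusted p up to 0.138). Only 4 members of the list fell in the fit without pre-BI sort 3.

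Ribosome biogenesis and other Myc-associated genes fell in 10 of 32 cases and rose in none, with a median of -0.63 (-0.61). Fbl, the nucleolar methyltransferase fibrillarin, ran from 1489 through 1652 to 2975 in pre-BI cells and was 710.1, 685.8, 423.2, 885.4 and 389.7 in small pre-BII cells. It fell 3.13-fold without overlap (-1.65 ± 0.28, adjusted p = 1.65e-05). Hspd1, a mitochondrial chaperone, fell 2.61-fold (adjusted p = 0.000305), Ran, the nuclear transport GTPase, 1.93-fold (adjusted p = 0.00022) and Nme2, a nucleoside diphosphate kinase, 1.92-fold (adjusted p = 0.000188). The large pre-BII mean of all 10 fallen genes lay between the means of the other stages. None of the 10 passed within sorts 1 to 3, and 8 genes of the list did within sorts 8 to 10.

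Glycolysis genes fell in 4 of 10 cases (2 without pre-BI sort 8), with a median of -0.61 (-0.09). Gapdh fell 2.95-fold from 8995 ± 2407 to 3088 ± 997 (-1.56 ± 0.27, adjusted p = 9.08e-06), and Ldha, lactate dehydrogenase, 2.48-fold by its brightest probe set and 6.90-fold by another (adjusted p = 0.00034 and 0.00105). Tpi1, triosephosphate isomerase, fell 1.71-fold with overlap (adjusted p = 0.0403, up to 0.127, lost without pre-BI sort 3, 8 or 9 or small pre-BII sort 1, 3 or 8), and another probe set did not pass. Slc16a1, a lactate transporter gene, fell at least 1.41-fold (adjusted p = 0.0483, up to 0.177, lost without pre-BI sort 1, 2, 8, 9 or 10 or small pre-BII sort 1 or 8), while its brighter probe set did not differ (adjusted p = 0.993). The Slc16a1 call was also lost with values raised to the noise limit before the fit (adjusted p = 0.319).

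Oxidative phosphorylation genes passed in 1 of 19 cases, beside 11% of all genes, with a median of -0.16. The 1 was Atp5o, an ATP synthase subunit gene, which fell 1.75-fold with overlap (adjusted p = 0.0498). Its call held only without pre-BI sort 1 or small pre-BII sort 9 and reached 0.158 without small pre-BII sort 1.

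**Figure D4:**
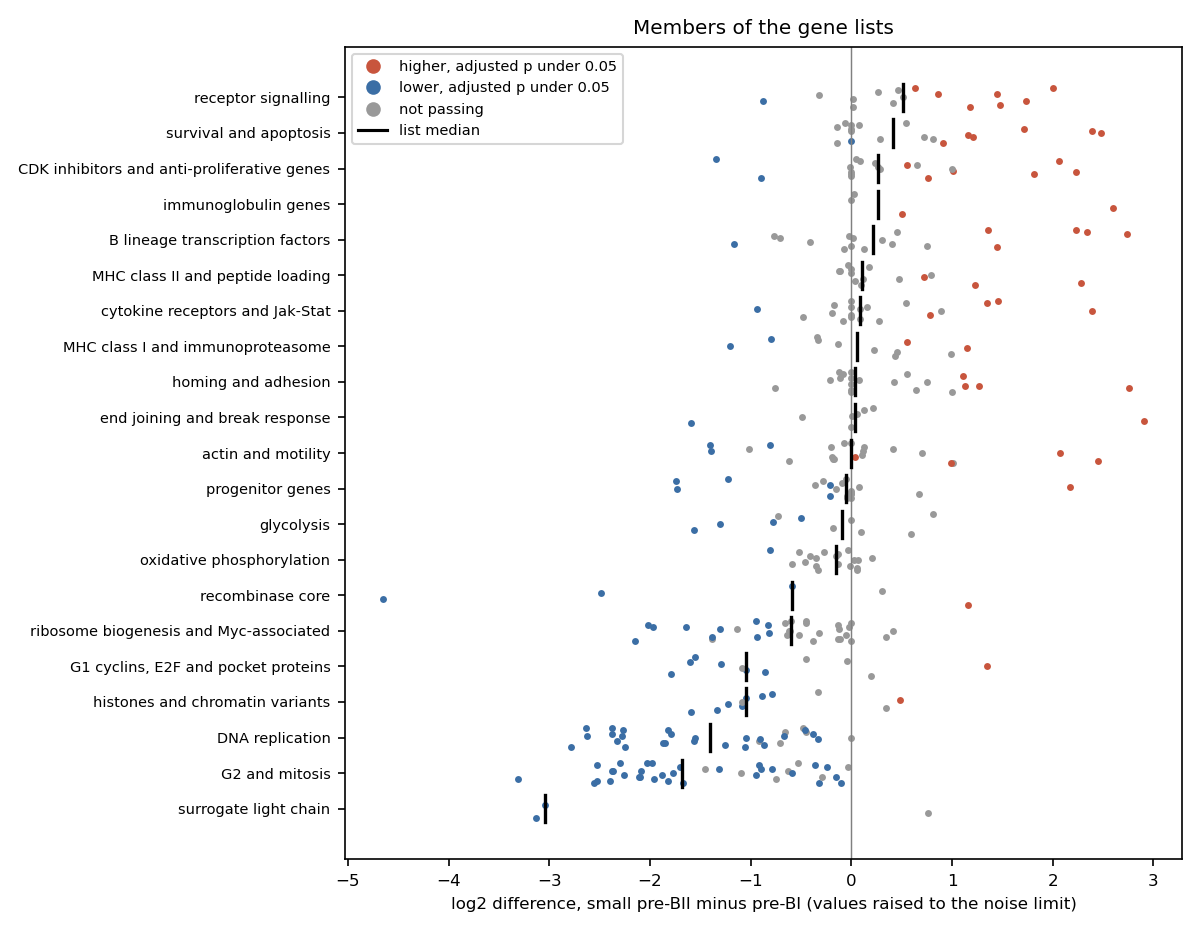
Log2 difference of each tested list member, small pre-BII minus pre-BI, from values raised to the noise limit; red and blue points passed as higher and lower, grey did not pass, and bars are list medians. The replication and mitosis lists lie at or below 0 with medians of -1.40 and -1.69, and the receptor signalling list has the highest median (0.51).

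The list of survival and apoptosis genes gave 6 rises and 1 fall among 18, with a median of 0.63 (0.41). The rises were of 4 genes that promote survival (Birc3, Pim2, Mcl1 and Bcl2l1) and of the caspase genes Casp6 and Casp9. Bcl2l1 and Casp6 were named here after their values were seen. Besides Birc3 and Pim2, Mcl1, an anti-apoptotic Bcl2 relative, rose 2.31-fold with overlap (adjusted p = 0.0031) and Casp9, an initiator caspase, 1.87-fold without it (adjusted p = 0.00349, 4 of 6 pre-BI preparations above the noise limit). Casp1, the inflammasome caspase, passed as lower (adjusted p = 0.000368), but every value of both groups was under the noise limit, so it has no fold. A second probe set of Casp1 did not pass.

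Genes of antigen presentation and migration changed in a few members each. Cd74, the invariant chain of MHC class II, rose 4.86-fold from 1074 ± 802 to 4120 ± 901 (2.28 ± 0.49, adjusted p = 5.63e-05), without overlap. Ctss, the cathepsin that degrades it, rose 1.65-fold (adjusted p = 0.0139, and 0.0576 without small pre-BII sort 8). H2-Aa, a class II alpha chain, rose 2.35-fold by 1 of 5 probe sets, with 5 of 6 pre-BI preparations above the noise limit (adjusted p = 0.0235, up to 0.069, lost without pre-BI sort 8 or 9 or small pre-BII sort 1 or 8). Pre-BI sort 10 had an H2-Aa level of 2296, above all small pre-BII preparations. The class II list had 3 rises in 14 (1 without small pre-BII sort 8), beside 4.54% of all genes higher, with a median of 0.34 (0.10).

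Of 11 class I and immunoproteasome genes 2 rose and 2 fell, beside 4.54% of all genes higher and 6.51% lower. Cd1d1, which presents lipids, rose 2.22-fold (adjusted p = 0.000371) and H2-D1, a classical class I gene, 1.47-fold by 1 probe set (adjusted p = 0.0262). The H2-D1 call was lost without pre-BI sort 1, 2 or 8 or small pre-BII sort 1, 3, 9 or 10 (adjusted p up to 0.0693), and its brighter probe set did not pass (adjusted p = 0.948). Psmb8, an immunoproteasome subunit, fell 1.74-fold (adjusted p = 0.00696). Psmb9, another, fell 2.30-fold with 4 of 5 small pre-BII preparations above the noise limit (adjusted p = 0.0202), lost without pre-BI sort 9 or small pre-BII sort 1 (adjusted p up to 0.0557), and its brighter probe set did not pass (adjusted p = 0.35).

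Homing and adhesion genes rose in 4 of 20 cases and fell in none, beside 4.54% of all genes higher and 6.51% lower. The list median was 0.25 (0.04). Cd2, an adhesion molecule that appears on B cell precursors of this stage, was under the noise limit in every pre-BI preparation (-166 to 52.2) and read 3757, 3043, 862.6, 1374 and 3405 in small pre-BII cells. It rose at least 6.75-fold (2.75 ± 0.42, adjusted p = 3.51e-09). Ccr7, a chemokine receptor of lymphoid organs (2.40-fold, adjusted p = 0.000239), Icam2, an integrin ligand (2.18-fold, adjusted p = 0.000198), and S1pr1, the egress receptor for sphingosine phosphate (2.16-fold, adjusted p = 0.01), rose without overlap. Pre-BI preparations above the noise limit numbered 1, 5 and 3 of 6 for Ccr7, Icam2 and S1pr1. Cxcr4, the receptor that retains precursors in marrow and likewise picked afterwards, did not pass, at 1853 and 3269 (adjusted p = 0.315).

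Of 21 actin and motility genes 4 rose and 3 fell, beside 4.54% of all genes higher and 6.51% lower. Myl4, an embryonic and atrial myosin light chain, increased 5.47-fold from 623 ± 210 to 3292 ± 567 (adjusted p = 6.07e-07) after 4537 in large pre-BII cells. Lsp1, a leukocyte actin binding protein, rose 4.19-fold (adjusted p = 0.00232). Tmsb10, a thymosin, rose 1.98-fold with overlap (adjusted p = 0.0403), lost without pre-BI sort 3, 8 or 9 or small pre-BII sort 1, 8 or 10 (adjusted p up to 0.124), and 4.26-fold by another probe set (adjusted p = 0.0169). Capg, an actin capping protein, rose at least 1.03-fold (adjusted p = 0.000317), with 1 small pre-BII preparation above the noise limit, and a brighter probe set did not pass. The Capg call was lost with values raised to the noise limit before the fit (adjusted p = 0.926).

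Lcp1, the leukocyte bundling protein L-plastin, fell 2.65-fold from 5498 ± 536 to 2166 ± 713 (adjusted p = 4.47e-05), Actn4, an alpha actinin, at least 2.64-fold (adjusted p = 5.93e-05) and Gsn, gelsolin, at least 1.76-fold (adjusted p = 0.00272). A dimmer probe set of Lcp1 and one of Gsn did not pass.

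Of 38 tested markers of other bone marrow cells 7 fell and none rose. Summed over members above the noise limit, each by its brightest probe set, granulocyte markers were at 1470 to 11286 in pre-BI and 1427 to 3124 in small pre-BII preparations. Monocyte and macrophage markers were at 6264 to 13210 against 2530 to 3762, without overlap. T and NK markers were at 836 to 2416 against 0 to 954 and erythroid markers at 8508 to 16593 against 5383 to 14678. Of the tested members 2 of 10 granulocyte, 2 of 9 monocyte, 1 of 7 erythroid, 1 of 7 T and NK and 1 of 5 megakaryocyte and mast cell markers fell, beside 6.51% of all genes lower. The 2 granulocyte falls became 0 without small pre-BII sort 10, 1 without pre-BI sort 2, 3, 9 or 10 or small pre-BII sort 1, 3 or 8, 3 without pre-BI sort 8 and 4 without pre-BI sort 1.

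The members behind those sums were few. Lyz2, lysozyme of myeloid cells, fell 3.06-fold from 5503 ± 1814 to 1781 ± 471 (adjusted p = 4.46e-05), Mpeg1, a macrophage gene, at least 3.36-fold by 1 of 2 probe sets (adjusted p = 3.8e-06) and Gzma, a granzyme, at least 3.87-fold (adjusted p = 2.64e-07). Car2, a carbonic anhydrase of red cells also made elsewhere, fell 5.07-fold with 2 of 5 small pre-BII preparations above the noise limit (adjusted p = 0.000432). Ngp, a neutrophil granule gene, fell 2.22-fold (adjusted p = 0.0293, up to 0.0928, lost without pre-BI sort 2, 3, 9 or 10 or small pre-BII sort 3, 8 or 10) and Camp, another, at least 1.5-fold (adjusted p = 0.0202, up to 0.0722, lost without small pre-BII sort 1 or 10). S100a9, a bright neutrophil gene, did not pass (870 and 330, adjusted p = 0.0899), and neither did Hba-a1, alpha globin (10499 and 8675, adjusted p = 0.482), nor Ccl4, a macrophage chemokine (adjusted p = 0.826).

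Under the noise limit in all 11 preparations were Mpo, Ctsg, Prtn3 and Ltf of granulocytes and Csf1r, Adgre1 and C1qa of macrophages. So were Gata1 and Epor of erythroid cells and Cd3d, Cd3g and Cd8a of T cells. Other markers were above it. By pre-BI means 5 of 12 granulocyte, 5 of 13 monocyte and macrophage, 6 of 10 erythroid and 1 of 9 T and NK markers exceeded it. By small pre-BII means these numbers were 2, 3, 4 and 0. Mcpt8, a basophil protease, passed as lower (at least 1.01-fold, adjusted p = 0.00808) with 1 pre-BI preparation above the limit. Ms4a1, the CD20 gene of later B cells, rose at least 1.29-fold by a dim probe set (adjusted p = 0.000828), while its bright probe set, at 2614 and 1934, did not pass (adjusted p = 0.459). The dim probe set lost its call with values raised to the noise limit before the fit (adjusted p = 0.28). Ms4a1 was the 1 of 11 plasma and mature B cell markers to pass. Pre-BI sort 10 had the highest granulocyte and monocyte sums, and without it 751 probe sets changed, 334 higher and 417 lower, of which 712 were among the 837. The part of these other cells in the changes described was not tested.

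**Figure D5:**
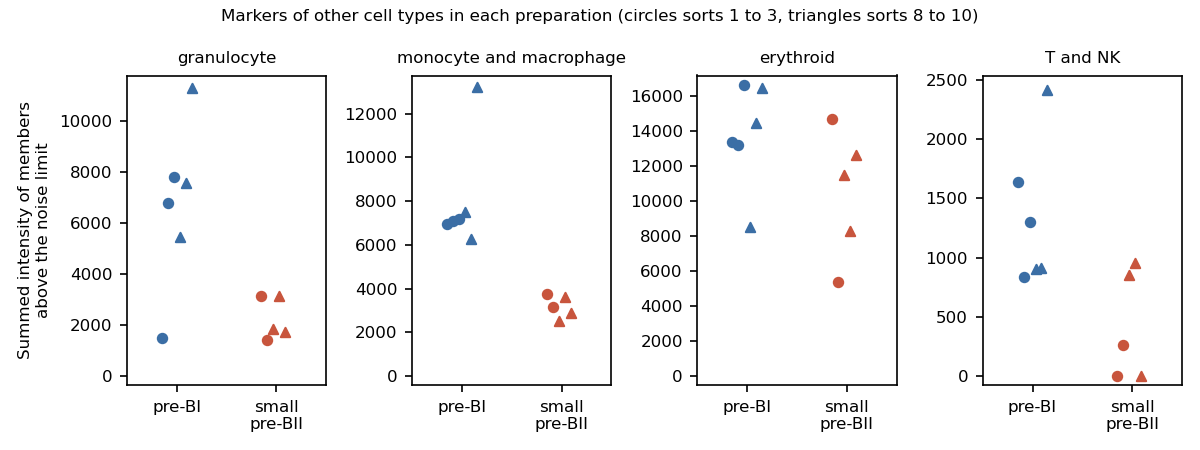
Summed normalised intensity of list members above the noise limit, per preparation, for 4 lists of other bone marrow cells; circles mark sorts 1 to 3 and triangles sorts 8 to 10. Monocyte sums are 6264 to 13210 in pre-BI and 2530 to 3762 in small pre-BII preparations, and pre-BI sort 10 is the highest of its group for granulocyte, monocyte and T and NK markers.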

How the data were processed

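RNA of sorted mouse bone marrow cells was measured on 2 oligonucleotide array designs. The authors deposited 1 table of intensities per design, linear with values below 0, and the scanner, summary and scaling software are not given in the sources used here. All sample columns were matched to titles, with 0 left unmapped. Of the tables' probe sets, 122 controls and 1 array identical to another were left out. The number of arrays limits the precision.

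Each table was quantile normalised, repeat arrays of a preparation were averaged, values were raised to the 40th percentile (87.6 and 6.89) and log2 was taken. Probe sets above this floor in at least 5 of 26 preparations were fitted with limma 3.58.1 in R 4.3.3 (lmFit, eBayes with trend) over all 26 preparations, with Benjamini-Hochberg adjustment over 10219 probe sets. The noise limit is 2 robust SD of the noise mirrored from negative values, and 40.1% and 20.1% of values exceeded it. Of 13057 probe sets, 7542 had 1 gene symbol, 224 several and 5291 none. In simulated data with normal noise and no floor, changes were placed only in probe sets with a mean above the median. Of these, 69 of 100 changed by 2 log2 units and 26 of 100 changed by 1 were recovered, with 4 false calls. Recovery among dimmer probe sets was not tested.

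Named genes were those of the sort gates and Dntt, Rag1 and Reln, the 12 largest non-overlapping rises and falls, up to 4 passing members per list and direction by adjusted p, all of lists with at most 6 tested members, and the 2 brightest markers of each other cell type. A gene was given by its brightest passing probe set, or its brightest where none passed. The members and lists were chosen with earlier results of these data known. Alternatives covered scaling, floor, filter, samples in the fit, prior variance, array sets, blocks, batches and leaving out each preparation.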

Additional observations from a re-analysis of the deposited data

Results flagged for a closer look

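Of 210 group values examined, 24 had 1 preparation apart from the others of its group by Dixon's criterion. The criterion was applied to log2 values raised to the noise limit. Where all others lay under that limit, a lone preparation above it was flagged however near it was. Fcrla in pre-BI sort 10 and Ccr7 in pre-BI sort 9 are examples. The rate of about 1 in 20 groups by chance does not hold for such raised values. Values are normalised intensities, with the range of the other preparations in parentheses. Among pre-BI preparations, sort 1 stood apart for Prkcd at 2957 (1549 to 1852), Cdkn1a at 153 (594 to 761), Ngp at 1214 (3401 to 5467) and granulocyte (summed markers) at 1470 (5429 to 11286). Sort 2 stood apart for Socs1 at 264 (-92 to 152). Sort 8 stood apart for H2ax at 1764 (3005 to 3906), Btg2 at 849 (1544 to 2031), Hba-a1 at 5894 (10537 to 13058) and erythroid (summed markers) at 8508 (13207 to 16593). Sort 9 stood apart for Klf2 at 483 (901 to 1150), Il10ra at 373 (198 to 258) and Ccr7 at 253 (-4 to 227). Sort 10 stood apart for Fcrla at 265 (158 to 244), Mcpt8 at 343 (113 to 254) and monocyte and macrophage (summed markers) at 13210 (6264 to 7521). Among small pre-BII preparations, sort 1 stood apart for Il2ra at 437 (71 to 144), Rbl1 at 264 (27 to 162) and Ms4a2 at 508 (122 to 232). Sort 8 stood apart for Cdkn1a at 355 (-221 to 236) and H2-D1 at 5859 (7612 to 7896). Sort 9 stood apart for Fcrla at 1172 (2889 to 3581) and Cd247 at 382 (185 to 309). Sort 10 stood apart for Jchain at 305 (31 to 194) and Capg at 364 (110 to 265).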

How the results depend on the processing

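Of the 104 named genes that passed, none changed direction in any alternative run, 85 kept their call in all 11 fits that left out 1 preparation, and 19 lost it in at least 1. The count of 837 changed probe sets became 270 with the values as deposited and 161 within sorts 1 to 3, and ranged from 710 to 840 when single preparations were left out. In the other alternatives run it lay between 605 and 1125. The share that was higher, 42.7%, became 37.4% with the values as deposited, 47.8% with trimmed mean scaling, 37.1% with 75th percentile scaling, 46.2% with the floor at the noise limit and 32.9% within sorts 1 to 3, and ranged from 41.3% to 46.1% over left-out preparations. The median log2 difference of all probe sets was 0.05, and 0.16 with the values as deposited.

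Differences of the effect between batches, 0 probe sets, became 1 with the values as deposited, 1 with the floor at the 25th percentile, 3 at the 60th, 1 at the noise limit and 5 with no filter. They ranged from 0 to 51 over left-out preparations, with 51 without small pre-BII sort 3 and 11 without small pre-BII sort 1, which leave 1 small pre-BII preparation in that batch. The lone one is assumed to vary like the others. The causes were not tested.

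The sort number as a replicate block gave 1125 changed probe sets, 499 higher and 626 lower, and of the named genes H3f3a lost its call (adjusted p = 0.0527). Deviations of same-numbered preparations correlated at -0.07 to 0.21, above 0.1 for 3 of 5 numbers, and the labels do not say that a number is shared between populations, so the preparations were not taken as paired. Named calls were lost for 43 genes with the values as deposited, 20 with only the 2 groups fitted, 59 within sorts 1 to 3 and 25 within sorts 8 to 10. The list medians of end joining, oxidative phosphorylation, class I, actin, T and NK, megakaryocyte and mast, and plasma and mature B genes changed sign in at least 1 alternative. On the b design 20.1% of values exceeded the noise limit, so falls to it are bounds.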
